A study of Mus musculus with 3 samples.

Results

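The genes described here are those of the cytoplasmic ribosomal proteins, taken as every gene whose symbol is Rpl or Rps followed by digits and at most 1 letter, together with *Rplp0*, *Rplp1*, *Rplp2* and *Rpsa*. Pseudogene rows and the ribosomal S6 kinase genes were left out. The rule found 80 of the 31053 genes in the count tables, 49 of the large and 31 of the small ribosomal subunit, and it used no expression value. At least 1 RNA molecule was counted for 79 of them. The counts come from droplet single-cell RNA sequencing of live cells sorted from a 2 mm section of brain around the site of tumor implantation. The mice were C57BL/6 females aged 6 to 8 weeks that carried BT0309 cells, a brain tumor-initiating line labelled with GFP and luciferase and derived from NPcis mice, which carry mutations of *Nf1* and *Trp53*, and the tissue was taken 4 weeks after implantation. One library came from mice injected with the saline vehicle (vehicle replicate 2) and 2 libraries from mice given niacin at 100 mg/kg a day into the peritoneum from day 7 (niacin replicates 1 and 2). Each library is a pool of 5 mice by the methods, while the labels speak of 4 pooled tissues, and a Percoll gradient before sorting enriched leukocytes.

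Ribosomes make all cellular protein, and each carries a single copy of nearly every ribosomal protein, so the cell makes these proteins in step with one another. Their mRNAs are among the most abundant of any growing cell and start with a 5′ terminal oligopyrimidine (TOP) motif, a C followed by a run of C or T, through which mTOR and LARP1 set how much of each mRNA is translated. Lymphocytes are known for a high content of ribosomal protein mRNA and for a steep rise in translation upon activation, and neutrophils are short-lived cells that leave the marrow with little biosynthetic activity. The 80 genes lie on 19 chromosomes, 4 of them on the X chromosome (GENCODE annotation of GRCm38). Because the kit counts 1 molecule per captured 3′ end, a count here does not scale with transcript length, and levels of different genes are compared as CPM, the count of unique molecular identifiers (UMIs) of a gene scaled to 1000000 UMIs of the class and library.

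RefSeq promoters of the same build (GRCm38.p6, 250 bases before and 50 after a start) were matched for 60 of the 80 genes. A C and 4 further pyrimidines stood exactly at an annotated start in 13 of the 60 (21.7%), against 2.89% of the 19407 genes of the table with a promoter and 0 of 69 mitochondrial ribosomal protein genes. A run of at least 8 letters that are each C or T, on the sense strand within 25 bases on either side of the start, stood in 32 of the 60 (53.3%), against 22.3% of all and 24.6% of the mitochondrial ones. Overlapping runs were counted once, and a match describes the letters only. The windows below, 15 bases on either side of the annotated start, belong to genes named in the comparisons that follow, with the longest pyrimidine run in capitals.
Rps27, chr3:90213634-90213663, minus strand: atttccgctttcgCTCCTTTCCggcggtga
Rpl38, chr11:114668565-114668594, plus strand: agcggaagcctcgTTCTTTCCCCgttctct
Rplp2, chr7:141447636-141447665, plus strand: tgcgtcagcgTCTTCCTTTCgccgccggac
Rpl13a, chr7:45128731-45128760, minus strand: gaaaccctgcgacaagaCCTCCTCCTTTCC
Rpl7a, chr2:26910792-26910821, plus strand: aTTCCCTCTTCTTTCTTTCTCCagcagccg
Rpl12, chr2:32961697-32961726, plus strand: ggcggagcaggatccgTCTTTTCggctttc
Rpsa, chr9:120127751-120127780, plus strand: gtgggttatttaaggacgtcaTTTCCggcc
Rpl41, chr10:128549154-128549183, minus strand: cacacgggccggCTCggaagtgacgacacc
The run spans the start in *Rps27*, *Rpl38*, *Rplp2* and *Rpl7a*, begins just inside the transcript in *Rpl12*, *Rpl13a* and *Rpsa*, and is as short as 3 letters in *Rpl41*.

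The 3 libraries hold 8301228 to 10359526 UMIs, and 3039 of 6947 barcodes had at least 2000 UMIs, at least 200 genes and at most 20% mitochondrial UMIs. A cell took a class where at least 3 of the 10 markers of that class had a UMI and at least 2 more than of any other class, which named 2827 cells and left 212 without a class. Names such as T cell stand for cells assigned by these markers. Microglia numbered 1604, T cells 335, choroid plexus cells 268, monocytes and macrophages 219, neutrophils 126 and B cells 77. Among monocytes and macrophages, 48 of the 170 vehicle cells, 5 of the 11 cells of niacin replicate 1 and 13 of the 38 of niacin replicate 2 had exactly the required markers or lead. In each of the 6 classes and every library the markers of the most frequent other class came to a median of 1 to 10 UMIs per cell, against 31.5 to 3397 UMIs of the class's own. Barcodes shared between libraries numbered 924, of which 452 occurred in all 3 libraries. Of the cells kept, 811 carried such a barcode, and in 794 of these the copy kept was the one with most UMIs. Shares of the 6 classes are therefore given with and without them.

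Ribosomal protein genes made up 10.2% of the UMIs of the cells kept, and their share differed widely between cell classes. T cells gave 20.2% of their UMIs to these genes in vehicle replicate 2, 29.2% in niacin replicate 1 and 30.3% in niacin replicate 2. In microglia the share was 6.49%, 6.06% and 6.94% in the same order, so that T cells lay above microglia in every library, 3.12 to 4.82 times as high. B cells held 15%, 28.3% and 29.4%, and monocytes and macrophages 11.2%, 17.7% and 18.7%. Both classes lay above microglia in all 3 libraries, and both were lowest in the vehicle library. Choroid plexus cells, the epithelium that secretes cerebrospinal fluid, held 6.28%, 6.49% and 7.48%, which overlaps the range of microglia. Neutrophils held 4.16%, 3.67% and 3.01%, below microglia in every library. In classes with fewer cells the means over 3 libraries were 20.4% ± 2.15 (SD, n = 3) in mast cells or basophils, 19.1% ± 6.37 in natural killer cells, 8.23% ± 0.409 in plasma cells and 1.70% ± 1.13 in erythroid cells. The last 2 rest on shared barcodes and few cells. The 14 plasma cells left 2 without such a barcode, at 1.14% and 1.27%, and the 79 erythroid cells left 5, at 0.201% to 0.811%, while single erythroid cells reached 31.5% around library medians of 0.256% to 0.394%. Counting error was small beside these gaps, with an exact binomial 95% interval of 20.2% to 20.3% for T cells of the vehicle library. No test was made on the summed share. Without shared barcodes the share of microglia was 5.30%, 5.38% and 6.39%, and that of T cells 19.6%, 29.5% and 29.9%. Monocytes and macrophages then held 8.86%, 16.5% (1 cell) and 15.6%, B cells 16.6%, 31.4% and 29.4%, choroid plexus cells 5.06%, 6.58% and 7.38%, and neutrophils 4.50%, 3.64% and 2.78%. The order of T cells above microglia and neutrophils below them held in each library.

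**Figure D1:**
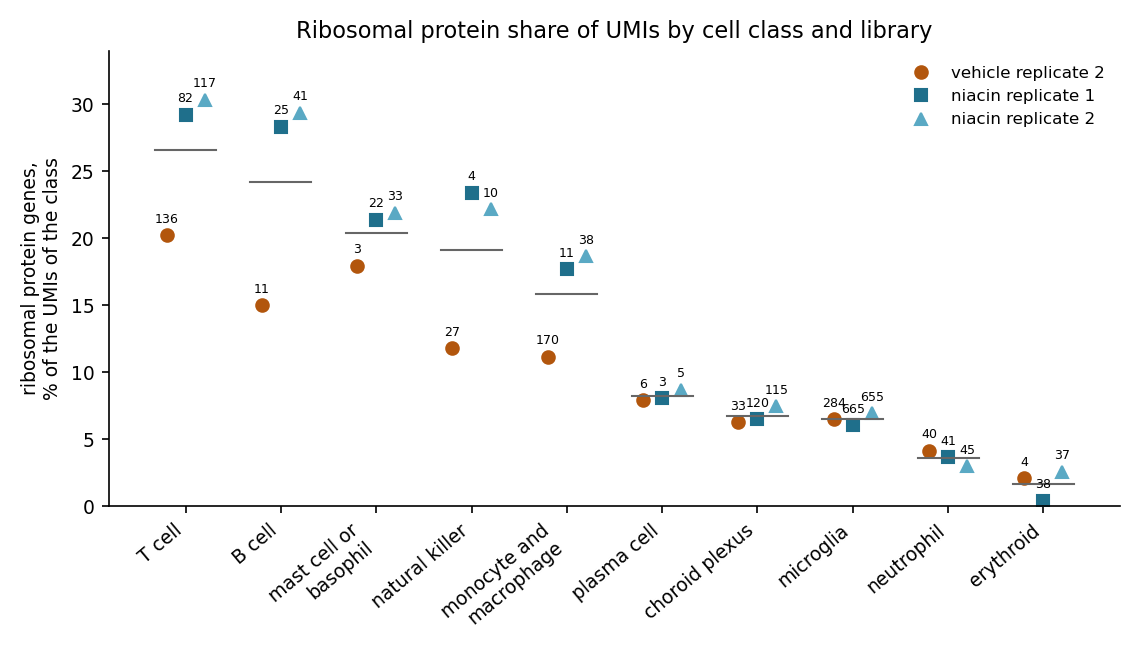
Percent of the UMIs of each cell class that came from the 80 ribosomal protein genes, with 1 point per library (circle, vehicle replicate 2; square, niacin replicate 1; triangle, niacin replicate 2), the number of cells above it and a line at the mean of the 3. T cells lie between 20.2% and 30.3% and microglia between 6.06% and 6.94%.

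The 3 genes with the highest mean level over microglia, T cells, choroid plexus cells and neutrophils were *Rps29*, *Rps24* and *Rps27*, all of the small subunit, and the lowest with a UMI were *Rps27l*, *Rpl3l* and *Rpl39l*. *Rps29* measured 3242, 3010 and 3559 CPM in microglia (vehicle, niacin 1 and niacin 2), where it led all the others, and 6288, 8159 and 8475 CPM in T cells. *Rps24* led in T cells with 8715 ± 2160 CPM (SD, n = 3), *Rps27* in B cells with 8887 ± 4064 CPM, *Rpl41* in choroid plexus cells with 3945 ± 472 CPM and *Rps9* in neutrophils with 1632 ± 234 CPM. *Rps29* also led in monocytes and macrophages, with 5954 ± 1612 CPM. The median gene of the set measured 3480 CPM in T cells, 784 in microglia, 777 in choroid plexus cells and 393 in neutrophils. The 10 leading genes held 24.0% to 25.2% of the ribosomal protein UMIs in 5 classes and 31.0% in neutrophils.

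T cells had more of almost every ribosomal protein mRNA than microglia. Of the 77 genes tested, 76 were higher in T cells and 0 lower by edgeR's quasi-likelihood test on UMIs summed per library and class, with library as a block and Benjamini-Hochberg adjusted p under 0.05. Among all 9858 genes tested, 27.4% were higher and 29.8% lower. The median log2 fold change of the ribosomal protein genes was 2.20, against -0.02 for all genes. *Rpsa*, the small-subunit protein once named laminin receptor, measured 4208, 5535 and 6167 CPM in T cells and 761, 640 and 731 CPM in microglia. It showed the largest difference, with a log2 fold change of 3.09 (SE 0.26, adjusted p = 1.69e-06). *Rps27* followed at 2.92 (SE 0.26, adjusted p = 2.62e-06) and *Rpl12*, a protein of the stalk base, at 2.90 (SE 0.26). *Rpl12* measured 2743, 4388 and 4595 CPM in T cells against 601, 541 and 625 CPM, with no overlap. At the other end, *Rpl10*, which the ribosome needs at a late step of large-subunit assembly, rose by 0.98 (SE 0.21, adjusted p = 0.00205) and *Rpl7a* by 1.37 (SE 0.20). *Rps27l* measured 99.8, 151 and 162 CPM in T cells and 129, 101 and 120 CPM in microglia, and it did not pass (log2 fold change 0.43, adjusted p = 0.0946). The other 76 genes were higher in T cells within each of the 3 libraries. Across libraries *Rpl10* overlapped too, with 1035 CPM in vehicle T cells and 1104 CPM in microglia of niacin replicate 2. With 1 library left out, 74 to 77 genes passed as higher. The 3 libraries are pools, and the block takes up the level of each pool. The p-values therefore rest on how the class difference varied from pool to pool, vehicle and niacin pools included.

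B cells and the monocytes and macrophages also had more ribosomal protein mRNA than microglia. Their fewest cells in a library were 11, so these tests rest on a minimum of 10 cells per library, which was set after the cell counts were seen. In B cells 74 of 77 genes were higher than in microglia and 0 lower, where 13.2% of 9103 genes were higher and 22.1% lower, and the median log2 fold change was 1.91 against -0.24 for all genes. *Rps27* (2.87), *Rps19* (2.84) and *Rpsa* (2.64) led. *Rps27l*, *Rpl10* and *Rplp1* did not pass, at 0.47, 0.83 and 1.06 (adjusted p = 0.205, 0.0889 and 0.0531 by edgeR). The B cell count rested on both niacin libraries, since 23 genes passed without niacin replicate 1 and 21 without niacin replicate 2. In these fits of 2 libraries the median log2 fold change was 1.65 and 1.67, and 77 of 77 genes had a positive value. In monocytes and macrophages 76 of 77 genes were higher and 0 lower, leaving out *Rpl3l*, which had 0 UMIs in microglia, where 19.5% of 9936 genes were higher and 18.3% lower, with a median of 1.555 against -0.10. *Rps19*, whose loss causes Diamond-Blackfan anemia, and *Rpsa* rose by 2.07 each and *Rplp0* by 2.02. The exception was *Rplp1*, with 1969, 2812 and 2774 CPM in monocytes and macrophages and 2051, 1942 and 2220 CPM in microglia (0.54, adjusted p = 0.115). The smallest changes that passed were those of *Rpl12* (0.82, adjusted p = 0.0196) and *Rpl13a* (1.01, adjusted p = 0.00435). In monocytes and macrophages 71 of the 77 genes passed as higher without niacin replicate 1 (median 1.41) and 57 without niacin replicate 2 (median 1.48). Of the 11 cells of niacin replicate 1, 10 carried shared barcodes, so this comparison could not be repeated without such barcodes.

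T cells were also compared with monocytes and macrophages directly. Of 77 genes 67 were higher in T cells and 1 lower, while 17.0% of 7215 genes were higher and 18.1% lower, and the medians were 0.80 for the ribosomal protein genes and 0.08 for all. *Rpl12* differed most, with 640, 957 and 1043 CPM in monocytes and macrophages against 2743 to 4595 CPM in T cells (log2 fold change 2.17, SE 0.11, adjusted p = 1.83e-06). *Rpl13a*, a component of the interferon-gamma-activated inhibitor of translation, followed at 1.59, and *Rplp1* at 1.38. *Rps27l* was the single gene lower in T cells, at -1.21 (SE 0.24, adjusted p = 0.00328). It measured 288, 348 and 320 CPM in monocytes and macrophages, above every T cell library. *Rpl10* (-0.15), *Rps9* (0.09) and *Rps25* (0.10) were the lowest besides and did not pass. Without the library block 25 genes were higher, and DESeq2 called 48.

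Choroid plexus cells had a few ribosomal protein mRNAs well above microglia. Of 77 genes 36 were higher and 0 lower, where 31.8% of 10270 genes were higher and 38.6% lower, and the median was 0.55 against -0.25 for all genes. *Rps27l*, a p53 target and paralogue of *Rps27*, measured 383, 372 and 533 CPM in choroid plexus cells (log2 fold change 2.40, SE 0.27, adjusted p = 7.15e-11). *Rpl41*, the shortest ribosomal protein, measured 3464, 3965 and 4408 CPM against 1545, 1163 and 1195 CPM in microglia (2.12, SE 0.32, adjusted p = 1.23e-07). *Rpl38*, known for selective translation of Hox mRNAs, measured 1385, 1322 and 1526 CPM against 901, 696 and 768 CPM (1.36). For these 3 genes every choroid plexus library lay above every microglia library. *Rps4x* (-0.22), *Rps29* (-0.20) and *Rpl12* (-0.04) were at the lower end and did not pass. The count depended on scaling and on each of the 3 libraries. Scaled to total UMIs in place of TMM, which moved the median of all genes by -0.55, 8 genes were higher and 4 lower. Of the 3 genes, *Rps27l* (1.88), *Rpl41* (1.61) and *Rpl38* (0.85) then stayed higher, each with an adjusted p under 0.05 by edgeR. The calls numbered 65 without the vehicle library, 5 without niacin replicate 1 and 8 without niacin replicate 2.

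Neutrophils gave a mixed picture. Of 77 genes 3 were higher than in microglia and 9 lower, leaving out *Rpl3l*, where 18.8% of 9149 genes were higher and 27.7% lower, so that both counts lie below the background. The median was -0.16 against -0.43 for all genes. *Rpl10a*, an early-binding large-subunit protein, measured 106, 98.8 and 80.3 CPM in neutrophils and 678, 553 and 614 CPM in microglia (log2 fold change -1.84, SE 0.30, adjusted p = 9.63e-05). *Rpl12* fell to 117, 126 and 82.4 CPM (-1.60) and *Rpl3*, which lies close to the peptidyl transferase center, to 197, 139 and 114 CPM (-1.30). Neither gene overlapped with its levels in microglia. *Rplp1* (-1.25), *Rpl36a* (-1.18), *Rpl10* (-1.05), *Rps18* (-0.82), *Rpl5* (-0.78) and *Rpl14* (-0.78) also passed as lower. *Rps9* measured 1865, 1635 and 1396 CPM in neutrophils against 1369, 1116 and 1263 CPM (1.22, adjusted p = 0.00496), and *Rps27a*, which encodes a ubiquitin fusion, 1265, 1639 and 1403 CPM against 1247, 1103 and 1270 CPM (1.09, adjusted p = 0.0136). *Rps27* passed as higher on the TMM scale (0.81, adjusted p = 0.0375), although its CPM was above microglia in only 1 of 3 libraries and its log2 fold change was -0.03 when scaled to total UMIs. That scaling moved the median of all genes by -0.88 and left 0 of the 77 genes higher and 44 lower by edgeR, and 52 genes in either direction had an unadjusted p under 0.05, *Rpl3l* included. On it *Rps9* (0.38) and *Rps27a* (0.25) did not pass, and *Rpl10a*, *Rpl12* and *Rpl3* kept their direction and their call. Without the vehicle library 15 of the 77 were higher, and without niacin replicate 1 or niacin replicate 2 none passed as higher by edgeR, where 11 and 6 genes in either direction had an unadjusted p under 0.05. Without niacin replicate 2, 3 genes were lower, and without shared barcodes 20 were. Neutrophils of the vehicle library also stood apart in depth and markers, with a median of 3360 UMIs and 122.5 marker UMIs per cell against 7820 and 8362 UMIs and 2706 and 3397 marker UMIs in the niacin libraries. The part of this difference in the result was not tested.

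**Figure D2:**
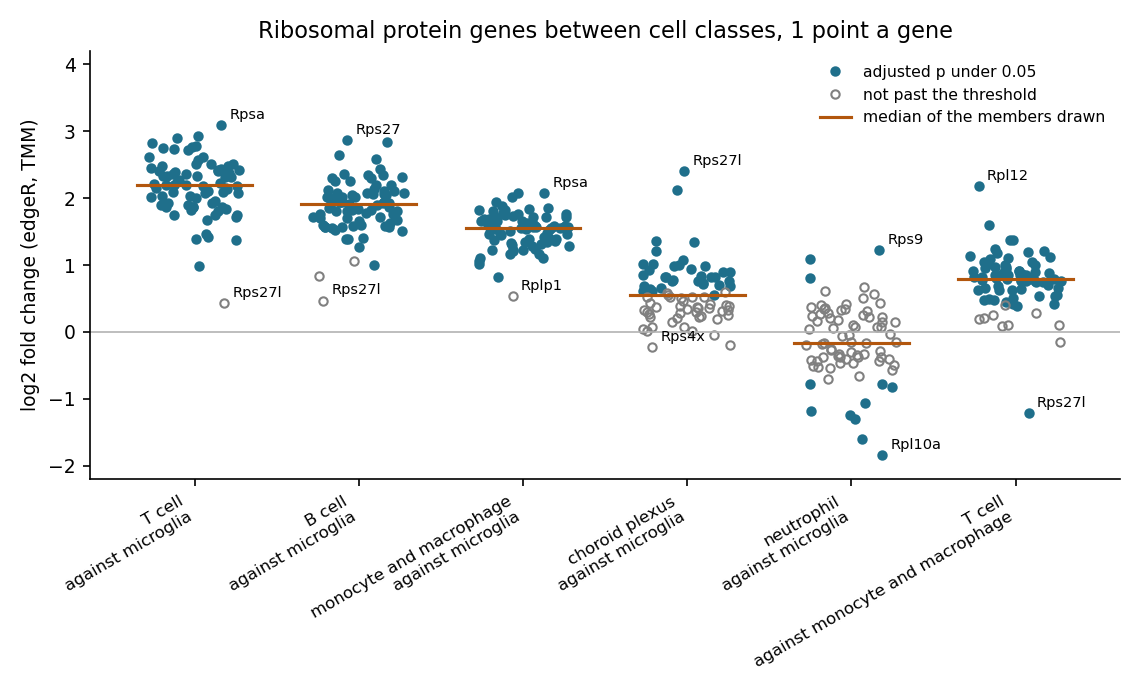
Log2 fold change of each ribosomal protein gene in 6 comparisons of cell classes (edgeR, TMM scaling), filled where the adjusted p was under 0.05, with a line at the median and without *Rpl3l*, which had 0 UMIs in microglia and in T cells. Nearly all genes lie above 0 in T cells, B cells and monocytes and macrophages, whereas neutrophil values lie on both sides of 0.

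The proteins of the acidic stalk and *Rpsa* illustrate how far members of a complex can differ. *Rplp0*, *Rplp1* and *Rplp2* form the stalk that recruits elongation factors to the large subunit. *Rplp0* measured 2196, 3598 and 3719 CPM in T cells, 1382, 2678 and 3032 CPM in monocytes and macrophages and 622, 633 and 761 CPM in microglia. *Rplp1* measured 5329, 6791 and 6986 CPM in T cells, while its levels in monocytes and macrophages overlapped those in microglia. Between T cells and microglia the log2 fold changes were 2.41, 1.81 and 2.33 for *Rplp0*, *Rplp1* and *Rplp2*, and between monocytes and macrophages and microglia 2.02, 0.54 and 1.58. In neutrophils *Rplp1* fell by 1.25 on the log2 scale (adjusted p = 0.00336 by edgeR), while *Rplp0* (0.24) and *Rplp2* (0.10) did not pass. *Rpsa* did not pass in neutrophils (0.04) or in choroid plexus cells (0.22), although without shared barcodes its value in neutrophils was -0.99 (adjusted p = 0.0181).

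Of the 4 genes with an l after the symbol of another member, *Rps27l* is described above and *Rpl3l* was counted in 2 of the named classes and in cells without a class. *Rpl3l* (chr17:24727820-24736143, plus strand), the muscle paralogue of *Rpl3*, had 42 UMIs in monocytes and macrophages (9.58, 73.7 and 31.3 CPM) and 22 in neutrophils (10.6, 24.7 and 19.0 CPM). Microglia had 0 UMIs of 10294967, which allows up to 0.291 CPM at 3 counts over the class. Over all libraries *Rpl3l* measured 17.7 CPM in monocytes and macrophages and 19.9 CPM in neutrophils, 60.8 and 68.2 times that floor. These ratios are not lower bounds, since they leave out the counting error of the 2 classes and pool libraries that the classes filled unequally. In the vehicle library, where both classes were lowest, the values rest on 17 and 2 UMIs. The gene entered the fits only through these 2 classes, so no test of it is given. T cells, B cells, natural killer cells and choroid plexus cells had 0 UMIs as well. The molecules were spread over 22 of 219 monocytes and macrophages and 13 of 126 neutrophils, 12 and 6 of them with shared barcodes. Of the 212 cells without a class 31 had a UMI of *Rpl3l*, 18 of these with shared barcodes, and over all barcodes the gene had 136 UMIs. *Rpl3* itself measured 997 CPM over all monocytes and macrophages, 138 CPM over all neutrophils and 642 CPM over all microglia. *Msrb1*, a methionine sulfoxide reductase gene that starts 498 bases downstream of *Rpl3l* on the same strand, measured 784, 1031 and 931 CPM in monocytes and macrophages, 1690, 1460 and 1139 CPM in neutrophils and 29.4, 31.9 and 26.4 CPM in microglia. Its part in the *Rpl3l* counts was not tested. *Rpl39l*, expressed in testis, had 23 UMIs over all barcodes, against 1257 ± 125 CPM (SD, n = 3) for *Rpl39* in microglia. *Rpl10l*, the autosomal retrogene that stands in for X-linked *Rpl10* in the male germ line, had 0 UMIs.

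Within the ribosomal protein UMIs the mix of genes also differed between classes. The value here is a gene's share of all ribosomal protein UMIs of a class, so the height of the whole set drops out. *Rps27l* held 0.0493%, 0.0516% and 0.0534% in T cells and 0.609%, 0.574% and 0.712% in choroid plexus cells, a mean log2 ratio of -3.61 ± 0.13 (SD, n = 3), the largest of any gene and pair of classes that kept 1 sign in all libraries. *Rpl12* held 1.355%, 1.501% and 1.514% in T cells and 0.281%, 0.343% and 0.274% in neutrophils. *Rpl10a* held 1.045%, 0.912% and 0.885% in microglia and 0.255%, 0.269% and 0.267% in neutrophils. *Rps9* held 4.48%, 4.45% and 4.65% in neutrophils and 1.63%, 1.29% and 1.27% in T cells. These 4 genes were picked because their shares differed most between 2 classes in the same direction in all 3 libraries. That their library values did not overlap follows largely from this choice. Of 77 genes with at least 30 UMIs in both classes, 67 kept 1 sign in all libraries between microglia and T cells and 55 between microglia and monocytes and macrophages. The number with a mean log2 ratio beyond 0.5 in size was 5 for microglia against monocytes and macrophages, the fewest of 10 pairs of classes, and 31 for T cells against neutrophils, the most. No test was made on these shares.

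**Figure D3:**
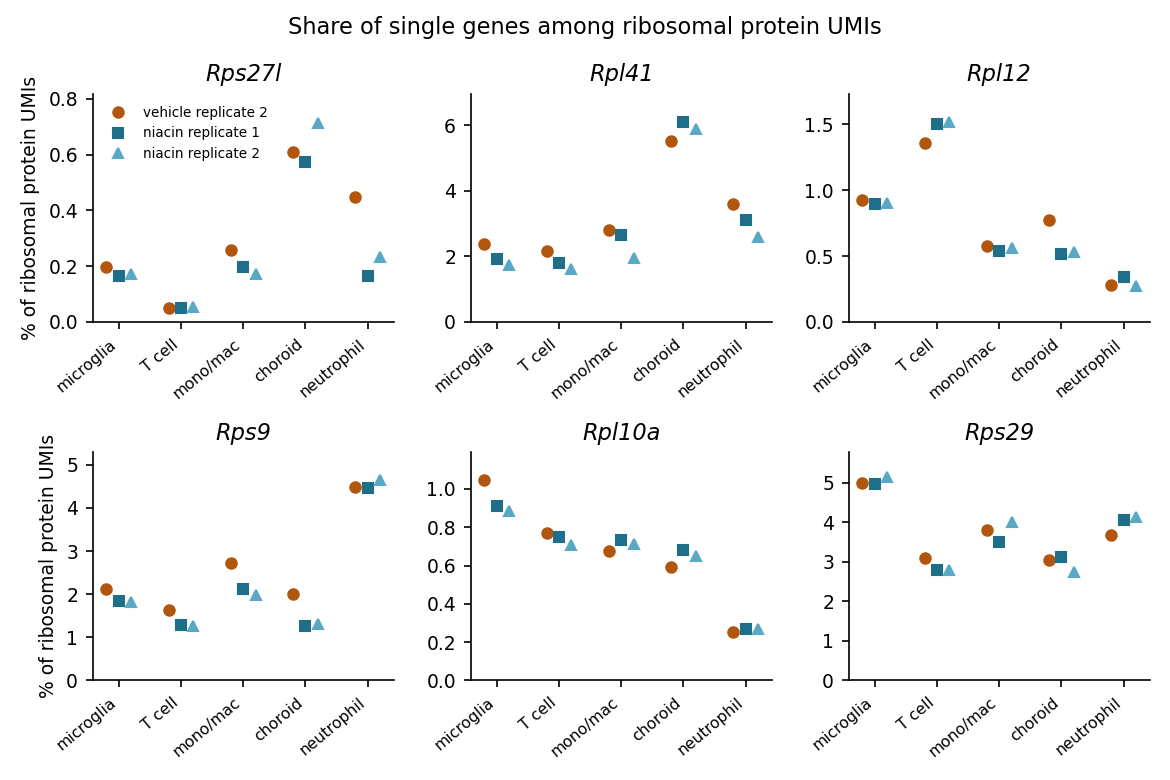
Share of 6 genes among all ribosomal protein UMIs of a class, in percent, with 1 point per library (mono/mac, monocytes and macrophages; choroid, choroid plexus cells). *Rps27l* and *Rpl41* are highest in choroid plexus cells, *Rpl12* in T cells, *Rps9* in neutrophils and *Rpl10a* and *Rps29* in microglia.

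Ribosomal proteins and relatives whose symbols fall outside the rule were looked at separately. They include *Rps3a1*, *Fau* (a fusion of a ubiquitin-like domain to a ribosomal protein), *Rack1* (a scaffold on the small subunit), *Rpl22l1*, *Rpl36al*, *Rpl7l1* and the retrogene *Rps27rt*. Of the 8 tested, 7 were higher in T cells than in microglia, from 1.51 (*Rpl36al*) to 2.76 (*Rps27rt*), and *Rpl7l1*, a nucleolar assembly factor, was lower (-0.45, adjusted p = 0.0349 by edgeR). Of all genes, 27.4% were higher there and 29.8% lower. In monocytes and macrophages and in B cells 7 were higher and 0 lower, where 19.5% and 13.2% of all genes were higher. In choroid plexus cells 3 were higher, among them *Rpl22l1* (1.47) and *Rpl36al* (1.22), where 31.8% of all genes were. In neutrophils *Fau* was higher (1.25) and *Rack1* lower (-0.72), where 18.8% of all genes were higher and 27.7% lower. The counts in choroid plexus cells and neutrophils thus lie near or below the shares of all genes. *Rps27rt* is a near copy of *Rps27*, and how reads were divided between them is unknown. Likewise 9 pseudogene rows of the set held UMIs equal to 0.0739% of those of the 80 genes.

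Other genes of the translation machinery had smaller median differences between T cells and microglia, where 27.4% of all genes tested were higher and 29.8% lower. Elongation factors and other TOP mRNAs were higher in T cells than in microglia in 16 of 17 genes tested (median 1.68), led by *Tpt1* and *Eif3f*. Initiation factors were higher in 16 of 25 and lower in 2 (median 0.53), with *Eif3k* and *Eif3m* at the top and *Eif4a1* and *Eif5* at the bottom. Ribosome biogenesis genes, which assemble the subunits in the nucleolus, were higher in 20 of 32 and lower in 0 (median 0.62), led by *Nop10* and *Dkc1*. Mitochondrial ribosomal proteins were higher in 39 of 77 and lower in 1, *Mrps2* (median 0.56). In choroid plexus cells the order was another, since 64 of 77 mitochondrial ribosomal protein genes were higher (median 1.37) against 36 of 77 cytoplasmic ones (median 0.55). Of all genes tested there, 31.8% were higher and 38.6% lower. In neutrophils 18 of 31 biogenesis genes were lower and 0 higher (median -1.87), led by *Myc* and *Wdr12*, against 9 of 77 cytoplasmic ribosomal protein genes and 27.7% of all genes. Some biogenesis genes were near the floor in neutrophils, such as *Bop1* with 2, 2 and 1 UMIs and *Dkc1* with 2, 0 and 1 UMIs. Their fold changes are thus less certain than those of the abundant ribosomal protein mRNAs. The immediate early and heat shock genes that mark tissue dissociation were lower in T cells in 9 of 11 and in choroid plexus cells in 10 of 11. They held 1.57% to 2.06% of the UMIs of microglia and 0.296% to 0.364% of those of T cells, and their part in the ribosomal protein shares was not tested.

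The share of ribosomal protein UMIs moved with the depth of the cell. Among T cells with barcodes of a single library, those with 1000 to under 2000 UMIs held 3.60% in vehicle replicate 2, 3.44% in niacin replicate 1 and 4.64% in niacin replicate 2. Those with 2000 to under 4000 UMIs held 9.70%, 13.6% and 9.66%, and those with 4000 to under 8000 UMIs 19.4%, 30.4% and 28.0%. From 1000 to under 8000 UMIs the share thus rose with depth in all 3 libraries. At 500 to under 1000 UMIs it was 6.83% in vehicle replicate 2 and 4.94% in niacin replicate 1 (5 T cells each). Both values lay above those at 1000 to under 2000 UMIs. Microglia of 500 to under 1000 UMIs held 5.99%, 4.84% and 2.64%. At 1000 to under 2000 UMIs T cells lay close to the 2.628%, 2.595% and 2.363% of microglia of that depth. The median mitochondrial share of these T cells fell from 16.6%, 14.3% and 15.2% at 1000 to under 2000 UMIs to 5.55%, 4.78% and 4.29% at 4000 to under 8000 UMIs. In choroid plexus cells the share was 5.029%, 6.935% and 7.596% at 2000 to under 4000 UMIs and 4.80%, 6.22% and 7.28% at 4000 to under 8000 UMIs. Depth and mitochondrial share cannot be told apart here. Between T cells and microglia 76 of 77 genes were higher with a minimum of 1000 or of 4000 UMIs and with no mitochondrial limit, and 77 without the deepest 5% of cells. As a share of non-mitochondrial UMIs, ribosomal protein genes held a mean of 28.1% in T cells and 6.66% in microglia.

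**Figure D4:**
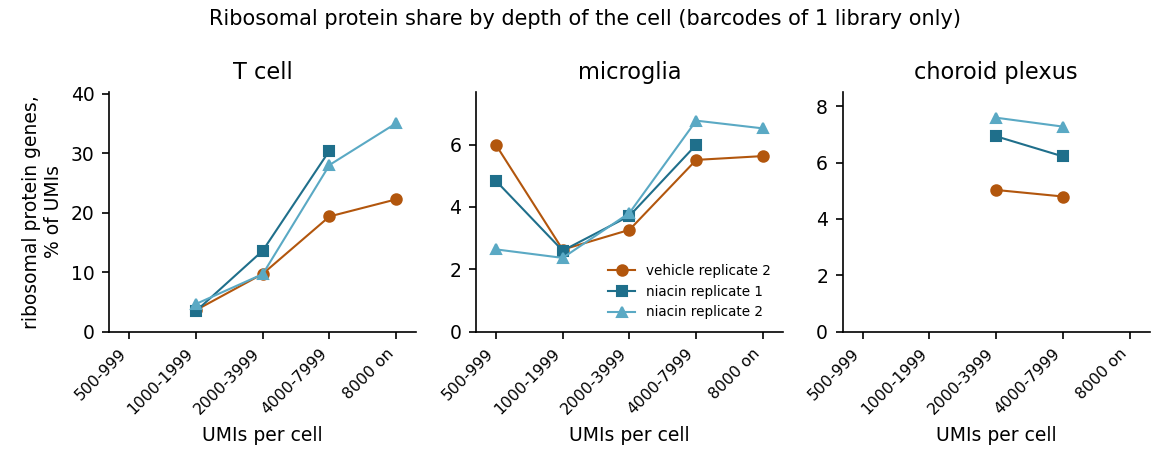
Percent of UMIs from ribosomal protein genes against the depth of the cell in UMIs, for barcodes found in 1 library only and bins of at least 10 cells, with 1 line per library. In T cells the share rises from under 5% at 1000 to under 2000 UMIs to between 19.4% and 30.4% at 4000 to under 8000 UMIs.

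Subsets of microglia and T cells were set apart by the UMIs of a few genes. Of the 284 vehicle microglia, 14 had UMIs of at least 3 of 10 cell cycle genes, and they held 10.8% against 6.05% in the other microglia of that library. In niacin replicates 1 and 2 such microglia numbered 2 and 5 and held 9.21% and 14.4% against 6.04% and 6.84%. Microglia with these genes were above the rest in each library and had more UMIs, with medians of 12100, 11920 and 7511. Of the vehicle T cells 5 had at least 3 of these genes, and they held 19.3% against 20.3% in the others. In T cells, those with *Cd8a* or *Cd8b1* and without *Cd4* held 24.4% to 31.6%, and those with *Cd4* alone 17.5% to 29.0%, both lowest in the vehicle library. All of these are descriptions, since cells of a library are not replicates.

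Niacin and vehicle libraries were set side by side to see whether the treatment groups differed within a class. With 1 vehicle library the spread between vehicle libraries is unknown, so no test was made, and the treatment cannot be told apart from other differences between the pools. In T cells the vehicle CPM lay below both niacin libraries for 73 of 77 genes and above both for 4, whereas 33.2% of 2998 genes with a mean of at least 50 CPM lay below and 53.6% above. The median log2 ratio of niacin over vehicle was 0.60 for these genes and -0.16 for all. *Rpl29* measured 766, 1517 and 1709 CPM (vehicle, niacin 1 and niacin 2), *Rpl32* 2625, 5267 and 5447 CPM and *Rps7* 2492, 4643 and 5013 CPM, the largest ratios in T cells. *Rpl23a* (1595, 1409 and 1373 CPM) and *Rps15* (2309, 2041 and 2101 CPM) ran the other way, at -0.20 and -0.16 on the log2 scale. The lower vehicle share was seen in the T cells with *Cd8a* or *Cd8b1* and in those with *Cd4* alone, and in T cells of 4000 to under 8000 UMIs. It was not seen in shallower T cells with barcodes of a single library. There the vehicle share lay between the niacin libraries, with 9.70% against 13.6% and 9.66% at 2000 to under 4000 UMIs. At 1000 to under 2000 UMIs it was 3.60% against 3.44% and 4.64%. Vehicle T cells had a median mitochondrial share of 5.57% against 4.77% and 4.41%, and over all barcodes the median was 8.85% in the vehicle library against 3.08% and 3.29%. The immediate early and heat shock genes together held 0.364%, 0.347% and 0.296% of T cell UMIs. Among them *Hspa1b* alone measured 89.3, 3.43 and 0 CPM. The part of these differences in the result was not tested.

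In monocytes and macrophages the vehicle value lay below both niacin libraries for 76 of 77 genes and above for 0, where 41.4% and 37.0% of genes did, with a median log2 ratio of 0.70 against 0.07. Most of these cells came from the vehicle library, 170 against 11 and 38, and 75, 10 and 19 of them had shared barcodes, which left 1 cell in niacin replicate 1. *Ly6c2*, a marker of inflammatory monocytes, measured 2165, 803 and 1078 CPM in the class. Whether the makeup of the class differed between libraries, and the part of this in the result, was not tested. In microglia 23 of 77 lay below and 23 above, where 38.8% and 49.8% of 3542 genes did, and the median log2 ratio was 0.01 against -0.05. *Rpl10* (750, 967 and 1104 CPM), *Rpl21* (806, 980 and 1190 CPM) and *Rpl29* had the largest ratios in microglia, at 0.46, 0.43 and 0.40. *Rpl31* (295, 201 and 227 CPM), *Rps26* and *Rpl23a* had the smallest, at -0.46, -0.46 and -0.45. In choroid plexus cells 44 lay below and 13 above, where 39.6% and 42.5% of 2396 genes did (median 0.15 against -0.0041). *Rpl10* (466, 794 and 815 CPM), *Rpl15* and *Rpl11* stood at 0.79, 0.68 and 0.66, and *Rpsa* (754, 482 and 540 CPM), *Rps9* and *Rpl23a* at -0.56, -0.47 and -0.45. In neutrophils 12 lay below and 53 above, where 17.7% and 73.6% of 2285 genes did, with a median of -0.28 against -0.64 for all genes.

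**Figure D5:**
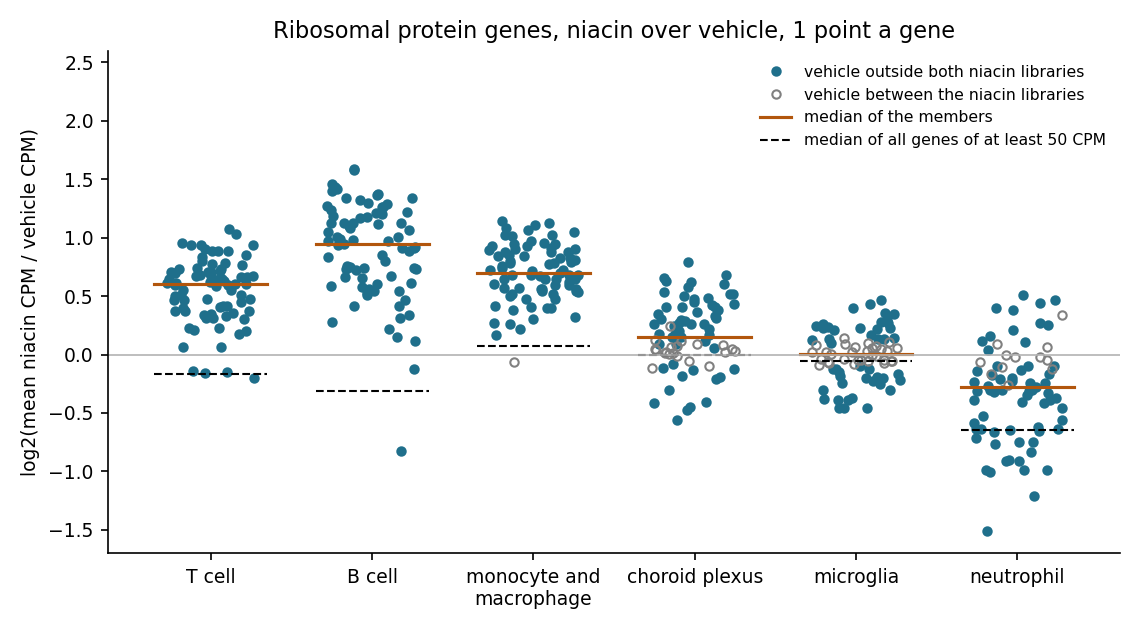
Log2 ratio of the mean niacin CPM to the vehicle CPM for each ribosomal protein gene with a mean of at least 50 CPM, filled where the vehicle value lay outside both niacin values, with the median of these genes (solid line) and of all genes of at least 50 CPM (dashed line). The medians of the ribosomal protein genes are 0.60 in T cells, 0.94 in B cells, 0.70 in monocytes and macrophages, 0.15 in choroid plexus cells, 0.01 in microglia and -0.28 in neutrophils.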

How the data were processed

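The authors prepared the libraries with Chromium 3′ v3.1 kits and, per their processing notes, used Cell Ranger 3.1 with STAR and mm10. The deposited files hold raw UMI counts per gene for barcodes called as cells, without normalization. Cells were kept and classed by marker UMIs as stated above, doublets were not removed, and 81 of the cells without a class carried at least 3 markers of each of 2 classes. For each class, the counts of its cells were added up within a library. Classes were compared with edgeR 4.0.16 (quasi-likelihood test, TMM scaling, filterByExpr) with a term for the library, and p-values were adjusted by Benjamini-Hochberg across the genes that passed the filter, where every library held at least 20 cells of both classes, or at least 10 for 3 comparisons added later. DESeq2 1.42.0 was an alternative. The fits were tested on simulated data with known changes. The genes and lists were chosen with earlier results of these data known. Named were the highest and lowest genes by level, by fold change in each comparison, by share of ribosomal protein UMIs and by niacin over vehicle ratio, the stalk proteins, *Rpsa* and the paralogues. Exact intervals describe counting error alone, and 3 counts were taken as the most that 0 observed counts allow. Natural killer cells were not tested, since the smallest group held 4 cells. A few genes and a grouping of T cells are not reported here.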

Additional observations from a re-analysis of the deposited data

Results flagged for a closer look

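The share of ribosomal protein UMIs was higher in both niacin libraries than in the vehicle library in T cells, choroid plexus cells, monocytes and macrophages, B cells, natural killer cells and mast cells or basophils, and lower in both in neutrophils. Between these classes and neutrophils the log2 ratio of niacin over vehicle differed by 0.88 for T cells, 0.47 for choroid plexus cells, 1.02 for monocytes and macrophages, 1.26 for B cells, 1.27 for natural killer cells and 0.59 for mast cells or basophils. These differences were not tested, and all of them rest on the same vehicle library. Some also rest on few cells. Natural killer cells numbered 27, 4 and 10 and mast cells or basophils 3, 22 and 33 (vehicle, niacin 1 and niacin 2). In neutrophils the median log2 ratio was -0.28 for ribosomal protein genes and lower still, -0.64, for all genes of at least 50 CPM. The share ratio of neutrophils was -0.32 and stood at -0.058 with a minimum of 4000 UMIs.

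Among the genes named for their niacin over vehicle ratio, some moved in opposite directions in different classes, each time with the vehicle value outside both niacin values. *Rpl31* was higher with niacin in choroid plexus cells and lower in microglia and T cells. Its log2 ratio in choroid plexus cells exceeded that in microglia by 0.81 and that in T cells by 0.48. *Rps26* was higher with niacin in T cells and lower in microglia and choroid plexus cells. Its T cell ratio exceeded that in microglia by 0.53 and that in choroid plexus cells by 0.26. *Rps9* and *Rpsa* had the same directions, with differences between the ratios of 0.41 and 0.68 for *Rps9* and 0.63 and 1.04 for *Rpsa*. None of these differences was tested.

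The 212 cells without a class entered no comparison. In them ribosomal protein genes held 18.1% of the UMIs in niacin replicate 1 and 18.8% in niacin replicate 2, above the 11.7% of vehicle replicate 2. Without shared barcodes the values were 11.2%, 17.6% and 10.1%. This difference was not tested.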

How the results depend on the processing

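Of the recomputed main values, 278 stayed within the spread between libraries or within 1.5 times the count and 36 did not. For shares and ratios with 1 library left out, staying within the spread was fixed in advance by the rule. The spread of the shares also includes the gap between vehicle and niacin libraries, so the 278 is no measure of robustness. Leaving out 1 library gave 0 to 16 genes higher and 3 to 9 lower in neutrophils (with *Rpl3l*), 5 to 65 higher in choroid plexus cells, 21 to 76 in B cells and 1 to 2 lower in T cells against monocytes and macrophages. Scaled to total UMIs, 1 gene (*Rpl3l*) was higher and 44 lower in neutrophils and 8 higher and 4 lower in choroid plexus cells, and *Rps27* in neutrophils stood at -0.030. Without shared barcodes 20 genes were lower in neutrophils, *Rpsa* there stood at -0.99, the mean microglia share was 5.69%, and the log2 niacin over vehicle ratios were 0.60 (T cells), 0.87 (B cells), 0.46 (choroid plexus cells) and 0.15 (microglia). Vehicle and niacin share only replicate number 2, and the block is the library; without a replicate block, 25 genes were higher in T cells than in monocytes and macrophages. With every gene of at least 1 count, 2 were lower there. Excluding mitochondrial UMIs gave a choroid plexus share of 7.46%, and a looser marker rule a neutrophil share of 5.25%. The ratio was 0.62 (T cells) and 1.17 (B cells) without a mitochondrial limit, 0.74, 1.20 and 0.82 (T cells, B cells, monocytes and macrophages) per UMI of other genes, 1.05 (B cells) at 1000 UMIs, 1.01, 0.64 and -0.058 (B cells, monocytes and macrophages, neutrophils) at 4000 UMIs, and 1.03, 0.78 and 0.47 (B cells, monocytes and macrophages, choroid plexus cells) without the deepest 5% of cells. The causes were not tested. Without shared barcodes, or at 4000 UMIs in neutrophils and B cells, too few cells remained for some fits.

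Of the values of named genes under the alternatives, 1082 kept their call or lack of one, 47 lost and 18 gained the call, and the 2 above reversed. A gene without a call in either fit counted as kept even where its sign changed. Scaled to total UMIs, 31 of all 78 genes tested changed sign in neutrophils and 31 of 77 in choroid plexus cells. The depth limits the rare genes *Rpl3l* and *Rpl39l*, and the tests rest on 3 pools.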
